A study of Mus musculus with 81 samples.

Results

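Fibroblast growth factor (FGF) signalling was described through 9 genes in single cells of the embryonic mouse pancreas: the ligand genes Fgf10, Fgf7 and Fgf9, the receptor genes Fgfr1, Fgfr2 and Fgfr3, and the Sprouty genes Spry1, Spry2 and Spry4. The 9 genes were chosen by name out of 22869 gene symbols with values, and all 9 had a row. The study profiled 81 single cells of the pancreas at embryonic day 13.5, from wild-type embryos of the CD1 mouse strain, dissociated with trypsin, caught on a microfluidic device and amplified as full-length cDNA with SMARTer chemistry. There was 1 condition, with no treatment and no second genotype. No animal is named for any cell, so the cells were treated as 1 sample, and each SD given here measures how cells, not animals, vary. No p-value was computed for that reason.

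FGF ligands are secreted proteins that bind tyrosine kinase receptors together with heparan sulfate. In the embryonic mouse pancreas, Fgf10 is known as a signal from mesenchyme that keeps epithelial progenitors dividing through Fgfr2 on the epithelium. Receptor activation runs through Ras and a kinase cascade, and Sprouty proteins, which FGF signalling itself induces, act inside the cell to dampen that cascade.

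Cells were grouped by marker genes other than the 9 members. Epcam-positive cells had at least 10 RPKM of Epcam, an adhesion molecule of epithelia. RPKM counts reads per kilobase of transcript, scaled to the depth of the library. They numbered 9 of 81 cells, or 11.1% (exact Clopper-Pearson 95% interval 5.21 to 20.05%). Stromal-like cells had under 1 RPKM of Epcam and at least 2 of 9 stromal markers, mostly collagens and PDGF receptors, at 10 RPKM. They numbered 65, or 80.2% (69.9 to 88.3%). A further 4 cells were leukocyte-like, 2 were endothelial-like and 1 was unclassed, with 5 of 6 neural crest and glial markers at 10 RPKM. All intervals cover counting error only.

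The markers bore out the names only in part. In Epcam-positive cells the 9 pan-epithelial markers summed to between 28.6 and 1546 RPKM, yet the 9 stromal markers summed to between 38.3 and 412.1 RPKM, with a median of 116.8 RPKM, and Lum was at 0. In stromal-like cells the stromal markers summed to between 130.6 and 1252 RPKM, with a median of 444.0 RPKM. Each Epcam-positive cell had at least 1 stromal marker at 10 RPKM, led in most of them by the collagen genes Col1a2 and Col3a1. The part of stromal RNA in the values below was not tested.

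Depth was estimated from the size of 1 read in each cell. The median was 3332310 reads, and 77 cells had between 1550380 and 5030900. The other 4 were shallow: C43, an Epcam-positive cell, with 394276 estimated reads, and the stromal-like cells C94, C61 and C3 with 187532, 69131 and 18944. In these cells 1 read in a transcript of 1 kb was worth 2.54, 5.33, 14.5 and 52.8 RPKM, above the level of 1 RPKM that counted as detected. Epcam-positive cells had a median of 3686890 reads and 4762 genes at 1 RPKM, against 3319870 reads and 4032 genes in stromal-like cells. The 81 libraries carried 81 different pairs of index sequences, and each of the top cells named below shared 1 of its indexes with 13 to 17 other cells.

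Across the 9 genes, the ligands were found in few cells, Fgfr1 and Spry2 in most, and Fgfr2, Spry1 and Spry4 in part of each group. Of the 9 members, 4 were detected in at least 50% of stromal-like cells, namely Fgfr1, Spry1, Spry2 and Spry4. Of the 13237 genes above 0 in at least 3 cells, which include 8 of the members but not Fgf7, 22.2% reached that share. RPKM is scaled to transcript length, so levels may be set against each other. Ordered by the median RPKM of stromal-like cells, Fgfr1 stood first at 23.0, followed by Spry4 at 19.9, Spry2 at 10.5, Spry1 at 5.59 and Fgfr2 at 0.707, with Fgf10, Fgf7, Fgf9 and Fgfr3 at 0. Neighbours in this order overlapped between their quartiles, which were 9.63 and 44.0 RPKM for Fgfr1, 0.0616 and 31.6 for Spry4, 3.46 and 21.2 for Spry2, 0.116 and 27.0 for Spry1, and 0 and 17.8 for Fgfr2.

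**Figure D1:**
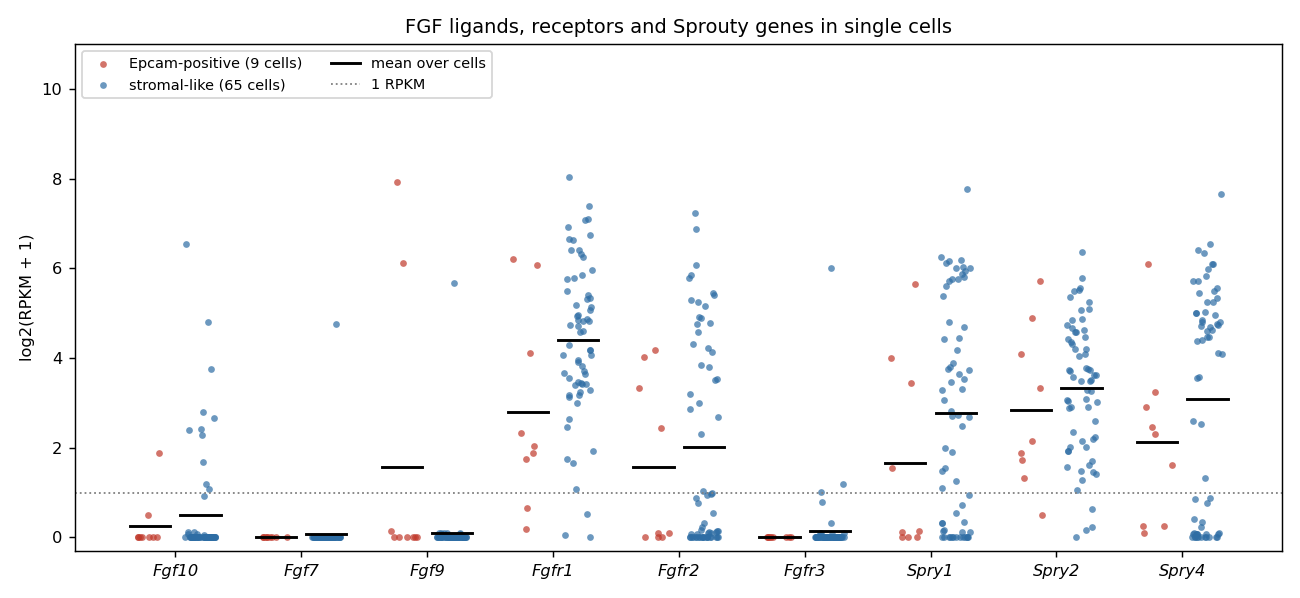
Level of each of the 9 genes in every Epcam-positive cell (9, left of each pair) and stromal-like cell (65, right), as log2(RPKM + 1). Bars are means over cells and the dotted line is 1 RPKM. Fgf10, Fgf7, Fgf9 and Fgfr3 are at or near 0 in most cells, and Spry4 in stromal-like cells falls into cells at 10 RPKM or more and cells under 1 RPKM with few between.

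Of the ligand genes, Fgf10 lies on mouse chromosome 13 (mm9 chr13:119503506-119581380, plus strand). It was detected in 1 of 9 Epcam-positive cells and 11 of 65 stromal-like cells, which is 16.9% (8.76 to 28.3%). The Epcam-positive cell was C29, with 2.67 RPKM. The stromal-like cells were C32 with 92.3 RPKM, C60 with 27.0, C63 with 12.5, C25 with 5.95, C38 with 5.31, C4 with 4.34, C1 with 4.25, C74 with 3.89, C7 with 2.21, C52 with 1.29 and C94 with 1.12. Only 3 cells thus passed 10 RPKM, and the value in C94, a shallow cell, corresponds to about 1 read. A further 6 stromal-like cells had a value above 0 and under 1 RPKM, and 48 were listed at 0. On the log2(RPKM + 1) scale, Fgf10 averaged 0.26 ± 0.63 in Epcam-positive cells and 0.51 ± 1.26 in stromal-like cells (SD over 9 and 65 cells), a difference of -0.24, which was -0.44 without C29.

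The stromal-like cells with Fgf10 also held receptor and Sprouty genes. Among the 62 stromal-like cells with at least 1000000 estimated reads, 10 had Fgf10 at 1 RPKM. All 10 also had Fgfr1 and Spry2, which 59 and 58 of the 62 cells had. Spry1 and Spry4 were each found in 7 of the 10, against 40 and 38 of the 62. Fgfr2, the receptor gene for Fgf10, was found in 5 of the 10, against 26 of the 62. Wt1, a transcription factor of mesothelium and visceral mesenchyme, was found in 8 of the 10, against 44 of the 62. No test was made of these counts, which rest on 10 cells.

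Fgf7, which encodes keratinocyte growth factor, a mesenchymal ligand of the epithelial form of Fgfr2, lies on chromosome 2 (mm9 chr2:125860394-125916921, plus strand). It was above 0 in 1 cell of all 81, the stromal-like cell C66, at 25.9 RPKM. Its 0 of 9 Epcam-positive cells allows a share of up to 33.3%. C66 had no Fgf10 and no Fgf9, and with 1 cell Fgf7 did not pass the filter of 3 cells above 0, so no difference was computed for it.

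Fgf9 lies on chromosome 14 (mm9 chr14:58691523-58731557, plus strand) and is known from the embryonic mouse lung as a ligand made by epithelium and mesothelium. It was detected in 2 of 9 Epcam-positive cells, C13 with 242.6 RPKM and C29 with 68.7 RPKM, and in 1 of 65 stromal-like cells, C41 with 50.1 RPKM. The 7 other Epcam-positive cells had at most 0.103 RPKM, and no stromal-like cell other than C41 reached 1 RPKM. The mean log2 level was 1.58 ± 3.12 in Epcam-positive cells and 0.10 ± 0.70 in stromal-like cells, a difference of 1.48 that rested on C13 and C29. It was 0.69 without C13, 0.91 without C29 and -0.0773 without both.

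The cells with Fgf9 each had markers of mesothelium, the cell sheet that covers visceral organs. These markers were looked at after the Fgf9 values had been seen. Of the 6 mesothelial markers, Wt1 alone was at 1 RPKM in all 3 cells. C13 had 320.9 RPKM of Upk1b, 56.3 of Wt1 and 1.33 of Upk3b. C29 had 17.7 RPKM of Upk1b, 58.4 of Wt1, 3.87 of Upk3b and 12.1 of Lrrn4. C41 had 13.1 RPKM of Wt1, 10.18 of Lrrn4 and 1.18 of Krt19, with 0 of Upk1b and 0.133 of Upk3b. Krt19 is also among the pan-epithelial markers. Wt1 was also at 1 RPKM in 46 of 65 stromal-like cells, whereas Upk1b reached 1 RPKM in 0, and Upk3b and Lrrn4 in 1 each. Over all 81 cells, the 3 cells with 3 or more of the 6 mesothelial markers at 1 RPKM were the 3 Fgf9 cells. Of the others, 0 of the 27 cells with no marker, the 48 with 1 and the 3 with 2 had Fgf9. This match did not hold at 10 RPKM, the level used to class cells: C29 had 3 markers, and C13 and C41 had 2. C37, C77 and C91 also had 2 at that level and were listed at 0 for Fgf9. C37 had 48.7 RPKM of Upk3b and 127.0 of Wt1. Msln, also on the mesothelial list, was at 0 in both groups of cells, and neither C13 nor C29 had Cdh1, the epithelial cadherin.

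Of the receptors, Fgfr1 was the most widespread. It encodes the receptor whose mesenchymal form binds many FGFs and lies on chromosome 8 (mm9 chr8:26629244-26686186, plus strand, the transcript of highest mean of 3). It was detected in 7 of 9 Epcam-positive cells and 62 of 65 stromal-like cells (95.4%, 87.1 to 99.04%). Epcam-positive cells had a lowest value of 0.137, a median of 3.11 and a highest value of 73.3 RPKM, against 0, 23.0 and 262.8 RPKM in stromal-like cells. The groups overlapped, since C43, C47 and C91 stood at 73.3, 66.2 and 16.3 RPKM among Epcam-positive cells while the other 6 had at most 3.99 RPKM. The mean log2 level was 2.80 ± 2.19 in Epcam-positive cells and 4.39 ± 1.76 in stromal-like cells, a difference of -1.59. The 73.3 RPKM of C43, a shallow cell, came from an estimated 109.6 reads.

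Across the genes compared, 523 of 13237, or 3.95%, were lower by at least 1 on this scale in Epcam-positive cells, and 1645, or 12.4%, were higher by at least 1. Of the 8 members that passed the filter, Fgfr1 and Spry1 were lower by at least 1 and Fgf9 was higher. The median difference of the 8 members was -0.46, against 0.06 over all 13237 genes. With 9 Epcam-positive cells each of these counts moved by 1 when single cells were left out: 1 to 3 members were lower by at least 1, with 1 without C13, C24, C29 or C47, and 0 were higher without C13 or without C29. Fgfr1 was lower by at least 1 in all 20 alternatives computed, with differences between -2.02 and -1.17. Some of these could not change it: without the filter, with Epcam at 1 RPKM and with markers at 5 or 20 RPKM it stayed at -1.59.

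Fgfr2 encodes the receptor of Fgf7 and Fgf10 on epithelia and lies on chromosome 7 (mm9 chr7:137305965-137410322, minus strand). Its transcripts differ in the exon that codes for the second part of the third immunoglobulin domain, which sets ligand choice. The IIIb form of epithelia binds Fgf7 and Fgf10, and the IIIc form of mesenchyme binds Fgf9. The deposited table gives a row to each of 2 Fgfr2 transcripts, NM_201601 with the IIIb exon and NM_010207 with the IIIc exon. The IIIb exon is shown because reads from it, rather than from the remainder of the gene, mark the epithelial form. It is read from a GENCODE vM21 transcript on GRCm38, minus strand, 5′ to 3′.
NM_201601 exon 6 (GRCm38 chr7:130199758-130199905, 148 bases): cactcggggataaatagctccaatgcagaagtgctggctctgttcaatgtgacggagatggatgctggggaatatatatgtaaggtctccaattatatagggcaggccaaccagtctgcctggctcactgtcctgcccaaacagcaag

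Fgfr2, taken from NM_201601, the row of higher mean, was detected in 4 of 9 Epcam-positive cells and 28 of 65 stromal-like cells (43.1%, 30.8 to 55.96%). Epcam-positive cells ranged between 0 and 17.02 RPKM with a median of 0.0702, against 0 to 150.4 RPKM with a median of 0.707 in stromal-like cells. The groups overlapped throughout, and the highest values, 150.4 RPKM in C92 and 116.9 RPKM in C65, were in stromal-like cells. The mean log2 level was 1.57 ± 1.88 in Epcam-positive cells and 2.02 ± 2.33 in stromal-like cells, a difference of -0.45 that is smaller than the spread of either group. Its direction turned, to 0.32, without the 3 Epcam-positive cells with Chga or Neurog3. It was -0.0150 without C13 and C29 and -1.01 without cells that share an index with C92, the highest cell. Leaving out single Epcam-positive cells gave -0.78 without C47, -0.76 without C82, -0.25 without C24, C29 or C56, -0.26 without C91 and -0.27 without C13. Among cells with the gene detected, the median was 12.2 RPKM over 4 Epcam-positive cells and 24.4 RPKM over 28 stromal-like cells.

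Within the Epcam-positive cells, Fgfr2 followed a combination of markers rather than Cdh1 alone, a grouping made after the values had been seen. The 4 cells with Cdh1 and neither Chga nor Neurog3, markers of the endocrine lineage, were C43, C47, C82 and C95, and they had 4.42, 17.02, 15.3 and 9.04 RPKM of Fgfr2. Of the cells with Chga or Neurog3, C24 and C56, which had Chga and the glucagon gene Gcg, were listed at 0, and C91, which had 258.0 RPKM of Neurog3, a transcription factor of endocrine progenitors, had 0.064 RPKM. Of the cells with Upk1b, C13 had 0.0702 RPKM and C29 was listed at 0. Fgfr2 thus did not overlap between the 4 cells with Cdh1 and neither Chga nor Neurog3 and the 5 other Epcam-positive cells, with higher values in the 4. Of all 13237 genes, 103, or 0.778%, were higher in these 4 cells without overlap, and Fgfr2 was the 1 among the 8 members compared. A further 32 genes, or 0.242%, were lower without overlap, with 0 of the 8 members. Since the cells were grouped with the Fgfr2 values known, these shares do not measure how unusual Fgfr2 is. Isl1, another gene of the endocrine list, was at 40.7 RPKM in C47 and 17.6 RPKM in C95. Fgfr1 did not divide the cells in the same way: it was at 73.3 RPKM in C43, 66.2 in C47, 0.137 in C82 and 3.99 in C95, and at 2.68 in C24, 2.34 in C56 and 16.3 in C91. C82 was the cell with Fgfr2 in the absence of Fgfr1 at 1 RPKM. The 9 stromal markers summed to 66.6 RPKM in C82, 116.8 in C43, 299.2 in C47 and 108.8 in C95, and to 113.3 in C24, 288.6 in C56, 178.0 in C91, 38.3 in C13 and 412.1 in C29. The cells of highest stromal sum, C29 and C47, had 3.11 and 66.2 RPKM of Fgfr1, and the part of stromal RNA in these values was not tested.

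**Figure D2:**
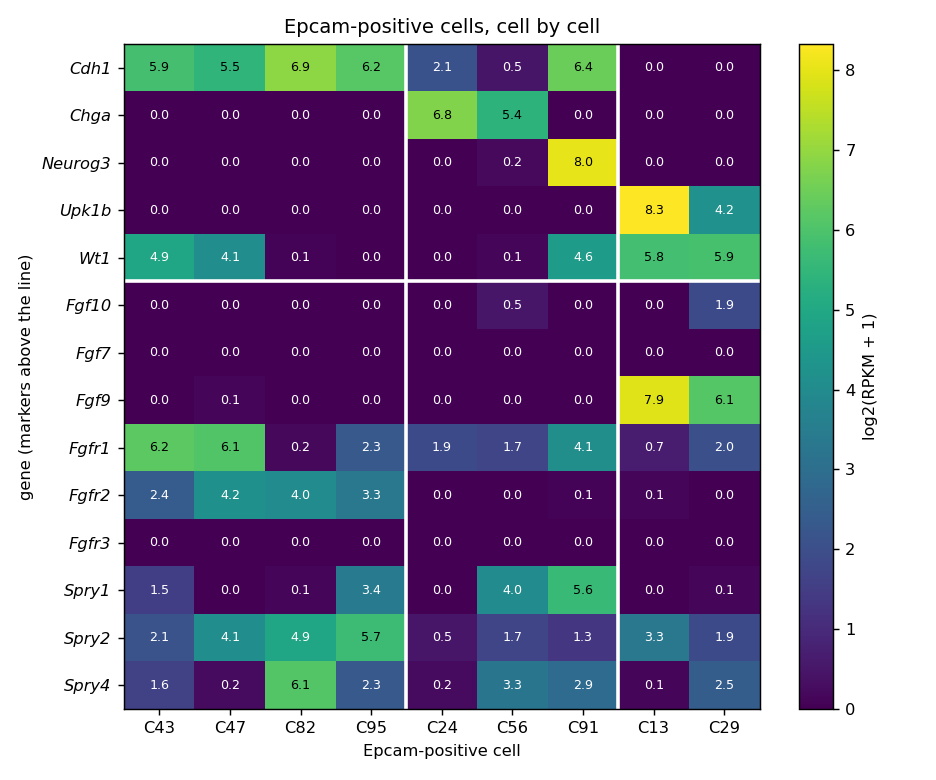
Level of 5 marker genes and the 9 members in each of the 9 Epcam-positive cells, as log2(RPKM + 1) by colour and number. Columns run from 4 cells with Cdh1 and neither Chga nor Neurog3, through 3 with Chga or Neurog3, to 2 with Upk1b; Fgfr2 is at 1 RPKM or more in the first 4 and Fgf9 in the last 2.

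Both Fgfr2 rows counted much the same reads. Of 54 cells with a value above 0 in either row, 39 had a ratio of NM_201601 to NM_010207 within 1% of the median ratio, 1.07. The coding parts are 2178 bases in NM_201601 and 2520 bases in NM_010207, a difference of 342 bases. If that difference accounts for the ratio, equal reads were assigned to both rows in these 39 cells, and the row of NM_201601 is 4856 bases long. The reads given below for the Fgfr2 rows use this length, which comes from the ratio and not from GENCODE vM21. Another length would change them. In C92, the cell of highest Fgfr2, the estimate was 3237 reads in each row, so its 150.4 RPKM cannot be assigned to a form. The same held for the Epcam-positive cells C82 and C95, with 324.8 and 186.1 reads in each row.

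In 14 cells NM_201601 had more than 1% above that ratio, or NM_010207 had no value, and in 1 cell, C75, it had less. The largest excess in reads was in the stromal-like cell C60, with an estimated 558.9 reads in NM_201601 and 328.3 in NM_010207. C39 had 89.2 and 4.72, C86 had 105.4 and 24.5, C46 had 132.9 and 75.4, and C52 had 11.2 and 0. In C39, C86 and C52 most reads of NM_201601 were thus not counted in NM_010207. Among Epcam-positive cells, C47 had 12.2 reads more in NM_201601, 364.2 against 352.0, and C43 had 8.45 against 6.58. NM_010207 also holds 2 coding exons of 267 and 78 bases that NM_201601 lacks. Reads across the junction that skips them would count for NM_201601 alone, and reads in them for NM_010207 alone, so neither an excess nor its size can be assigned to the IIIb exon. How the authors divided shared reads is not given in the sources used here.

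**Figure D3:**
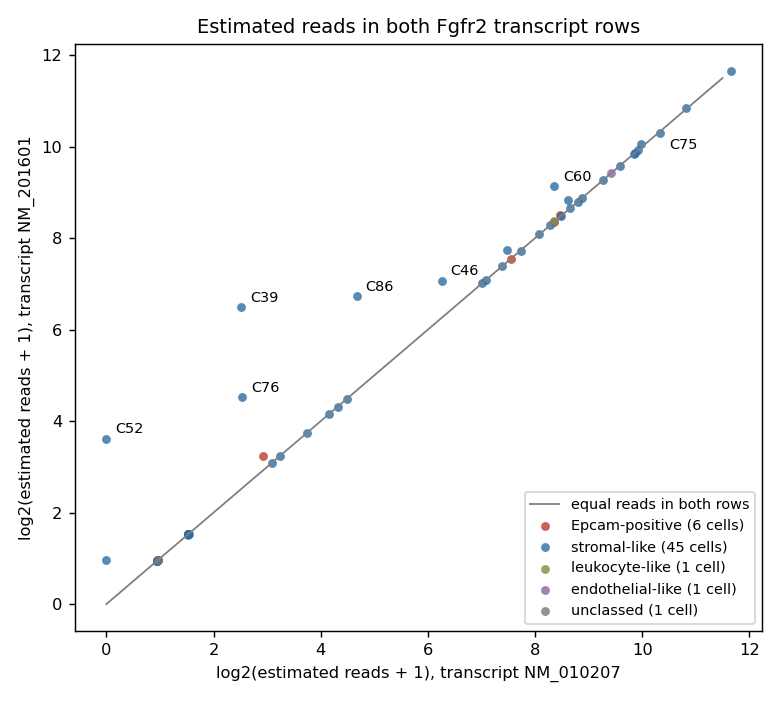
Estimated reads assigned to the Fgfr2 transcripts NM_010207 (horizontal, IIIc exon) and NM_201601 (vertical, IIIb exon) in 54 cells, both as log2(reads + 1), coloured by cell group. Most cells lie on the line of equal reads; C39, C86, C60, C46, C52 and C76, all stromal-like, lie above it.

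Fgfr3, known as a receptor that restrains bone growth in cartilage, lies on chromosome 5 (mm9 chr5:34064955-34079717, plus strand, highest of 5 rows). It was detected in 0 of 9 Epcam-positive cells, which allows a share of up to 33.3%, and in 3 of 65 stromal-like cells. These were C17 with 63.2, C6 with 1.29 and C79 with 1.03 RPKM, so C17 was the only cell past 10 RPKM. The difference of mean log2 levels was -0.15, with 0 in Epcam-positive cells and 0.15 ± 0.77 in stromal-like cells, and it was -0.29 with transcript rows summed.

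Counted over the receptor members, 1 of 9 Epcam-positive cells had no receptor, 5 had 1 and 3 had 2, against 1, 35 and 29 of 65 stromal-like cells. No cell of either group had all 3. Among the 62 deep stromal-like cells, Fgfr1 and Fgfr2 were found together in 24 (38.7%), against 24.7 given by the product of their shares. Fgfr1 without Fgfr2 was found in 35, Fgfr2 without Fgfr1 in 2 and neither in 1. Spearman's rho between the receptors was -0.21 over these 62 cells, which carry 1 flow cell name in the labels, share single indexes and differ in depth. C92 stood out at 0.0444 RPKM of Fgfr1 beside its 150.4 RPKM of Fgfr2, and C71, with the highest Fgfr1 at 262.8 RPKM, had 0.467 RPKM of Fgfr2. Outside these groups, the endothelial-like cell C22 had 39.3 RPKM of Fgfr2 and 7.998 of Fgfr1.

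Among the Sprouty genes, Spry2 was found in the most cells. It lies on chromosome 14 (mm9 chr14:106291164-106296036, minus strand). It was detected in 8 of 9 Epcam-positive cells and 61 of 65 stromal-like cells (93.8%, 85.0 to 98.3%). Epcam-positive cells ranged between 0.412 and 51.8 RPKM with a median of 3.41, against 0 to 81.2 RPKM with a median of 10.5 in stromal-like cells. The ranges overlapped almost whole, and the mean log2 levels were 2.84 ± 1.76 in Epcam-positive cells and 3.32 ± 1.51 in stromal-like cells, a difference of -0.48. Its direction turned, to 0.35, without the 3 Epcam-positive cells with Chga or Neurog3. It was -0.19 without C24, -0.29 without C91, -0.84 without C95 and -0.73 without C82. Spry2 was also at 1 RPKM in 4 of 4 leukocyte-like cells, 2 of 2 endothelial-like cells and the unclassed cell.

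Spry4 (mm9 chr18:38745919-38760922, minus strand) was detected in 6 of 9 Epcam-positive cells and 40 of 65 stromal-like cells (61.5%, 48.6 to 73.3%). Epcam-positive cells ranged between 0.0743 and 67.6 RPKM with a median of 3.97, against 0 to 201.8 RPKM with a median of 19.9 in stromal-like cells. Its stromal-like values were split: 37 cells had 10 RPKM or more, 3 had 1 to under 10, 14 had a value above 0 and under 1, and 11 were listed at 0. Spry2 was spread more evenly in the same cells, with 35 at 10 RPKM or more and 26 from 1 to under 10. Among Epcam-positive cells 5 had Spry4 from 1 to under 10 RPKM and 1, C82, had more. The mean log2 level was 2.14 ± 1.91 in Epcam-positive cells and 3.09 ± 2.51 in stromal-like cells, a difference of -0.95. It was -1.45 without C82, -1.09 without C56 and -1.05 without C91, but -0.70 without C13 and -0.72 without C24 or C47.

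Spry1 lies on chromosome 3 (mm9 chr3:37538872-37543521, plus strand). It was detected in 4 of 9 Epcam-positive cells and 42 of 65 stromal-like cells (64.6%, 51.8 to 76.1%). The Epcam-positive cells were C91 with 48.9 RPKM, C56 with 15.05, C95 with 9.87 and C43 with 1.91, and the other 5 had at most 0.101 RPKM. Stromal-like cells reached 215.9 RPKM, in C50, with a median of 5.59, and 27 of them had 10 RPKM or more. Among Epcam-positive cells, Spry2 was highest in C95, C82 and C47, at 51.8, 28.6 and 16.1 RPKM. Spry1 was highest in a cell with Neurog3, C91, and a cell with Chga, C56. C24, the other cell with Chga, was listed at 0 RPKM of Spry1. The mean log2 level was 1.65 ± 2.16 in Epcam-positive cells and 2.78 ± 2.38 in stromal-like cells, a difference of -1.13. It was past -1 in 14 of 20 alternatives, including those that left cells and values unchanged, and lay between -1.91 and -0.67. It was -0.67 without C13 and C29, -0.92 without C13, C24 or C47, and -0.94 without C29 or C82.

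Stromal-like cells mostly held several Sprouty genes. All 3 were at 1 RPKM in 4 of 9 Epcam-positive cells and 27 of 65 stromal-like cells. Of the other Epcam-positive cells, 2 had Spry2 and Spry4, 2 had Spry2 alone and 1, C24, had none. Of the other stromal-like cells, 13 had Spry1 and Spry2, 12 had Spry2 and Spry4, 1 had Spry1 and Spry4, 9 had Spry2 alone, 1 had Spry1 alone and 2 had none. Over the 62 deep stromal-like cells Spearman's rho was 0.14 between Spry1 and Spry4, 0.03 between Spry1 and Spry2, and -0.05 between Spry2 and Spry4, values too weak in such sparse data to be read as a relation. Of these cells 59 had Fgfr1, 2 had no Sprouty gene, and 91.9% had Fgfr1 with at least 1 Sprouty gene. Fgfr1 and Spry2 were found together in 55 cells, against 55.2 given by the product of their shares, and their rho was 0.22.

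The genes most like each member in level were listed over the same 62 cells, among 4953 genes at 1 RPKM in at least 20 of them. For Spry1 these were Irf3 (rho 0.55), Gars (0.47) and Mrpl55 (0.46), and for Spry4 they were Crk (0.47), Zfp329 (0.45) and Prmt5 (0.43). Fgfr1 was closest to Cenpw (0.42), Kif4 (0.40) and Lsp1 (0.39), and Fgfr2 to Cog5 (0.46), 1810058I24Rik (0.42) and Snx1 (0.41). Spry2 was closest to Iqsec1 (0.41), Myo10 (0.41) and Zfyve16 (0.40). No member or other FGF gene of the lists below was among these 15 genes. They are the highest of 4953 values each, in sparse data, and are given as a description only.

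Other FGF ligand genes were rare. Of 19 on the list, 9 reached 1 RPKM in some cell and 10 were at 0 in every cell, among them Fgf8, Fgf4 and Fgf20. Fgf1, a ligand that binds all FGF receptors, was at 1 RPKM in 2 of 9 Epcam-positive cells and 9 of 65 stromal-like cells, led by C32 with 144.7 RPKM, C47 with 119.1, C46 with 42.9, C90 with 35.1 and C29 with 15.7. C32 was thus the highest cell for Fgf1 as well as for Fgf10. Fgf18, a ligand known from skeletal development, was in 0 of 9 Epcam-positive cells and 7 of 65 stromal-like cells, led by C84 with 80.2 RPKM and C41, the Fgf9 cell, with 54.9. Fgf12 and Fgf13, which belong to the FGF homologous factors that stay inside the cell, were in 2 and 1 Epcam-positive cells and in 3 and 4 stromal-like cells. C29 held Fgf5 at 23.5 RPKM and Fgfbp1, a secreted FGF carrier, at 155.3 RPKM beside its Fgf9 and Fgf10. Of the 4 ligand genes that passed the filter, 0 were higher and 0 lower by at least 1, with a median difference of 0.35.

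Among other receptors and co-receptors, 9 of 10 genes reached 1 RPKM in some cell. Flrt2, a membrane protein that binds FGF receptors, was in 5 of 9 Epcam-positive cells and 52 of 65 stromal-like cells, with a median of 4.02 RPKM in Epcam-positive cells and 27.8 RPKM in stromal-like cells. Of the 7 genes of the list that passed the filter, Flrt2 alone differed by at least 1, at -1.31, and the median difference was -0.14. Fgfrl1, a receptor without a kinase domain, was in 4 of 9 Epcam-positive cells and 17 of 65 stromal-like cells, with 112.0 RPKM in C82 and 158.4 RPKM in the stromal-like cell C49. Fgfr4 reached 1 RPKM in 1 cell, the Epcam-positive C43, at 9.07 RPKM. Cdh2, N-cadherin, which binds Fgfr1, was in 5 of 9 Epcam-positive cells and 40 of 65 stromal-like cells.

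Of 15 symbols of FGF targets and feedback genes, 13 had a row. The symbols without a row, Sef and Mkp3, are other names of Il17rd and Dusp6, which are on the same list and had rows. Of the 13 genes, 11 reached 1 RPKM in some cell and 10 passed the filter, with 0 higher and 0 lower by at least 1 and a median difference of 0.26. Dusp6, a phosphatase that switches off ERK and is induced by FGF signalling, was the most widespread, in 8 of 9 Epcam-positive cells and 58 of 65 stromal-like cells, with medians of 17.5 RPKM and 30.7 RPKM in these groups. Its mean log2 level was 3.86 ± 2.10 in Epcam-positive cells and 4.37 ± 2.21 in stromal-like cells, a difference of -0.51. The ETS transcription factor genes that FGF signalling induces were sparser: Etv5 was in 1 of 9 Epcam-positive cells and 9 of 65 stromal-like cells, Etv1 in 3 and 13, and Etv4 in none, with 0.735 RPKM as its highest value. Spred1, an inhibitor of Ras signalling related to Sprouty, was in 5 of 9 Epcam-positive cells and 24 of 65 stromal-like cells. Ccnd1, a cyclin of the G1 phase, was in 6 and 42.

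Of 30 genes of signal transduction, 29 had a row and 28 passed the filter, with 4 higher and 1 lower by at least 1 in Epcam-positive cells and a median difference of 0.26. Mapk3, which encodes the kinase ERK1, averaged 5.13 ± 1.83 in Epcam-positive cells and 3.34 ± 2.21 in stromal-like cells on the log2 scale, a difference of 1.79. It was at 1 RPKM in 8 of 9 Epcam-positive cells and in 49 of 65 stromal-like cells. Pik3r1, a regulatory subunit of PI3-kinase, averaged 1.38 ± 1.58 in Epcam-positive cells and 2.48 ± 2.17 in stromal-like cells, a difference of -1.10. Akt1, a kinase downstream of PI3-kinase, and Sos2, an exchange factor for Ras, differed by -0.96 and 0.92. Crkl, an adaptor, and Rps6ka3, a kinase downstream of ERK, were also past 1, at 1.30 and 1.93, and are named after their values were seen: each was in 4 of 9 Epcam-positive cells. The 4 higher of 28 genes stand beside 12.4% of all genes compared, and Epcam-positive cells had more genes detected per cell, as given above.

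**Figure D4:**
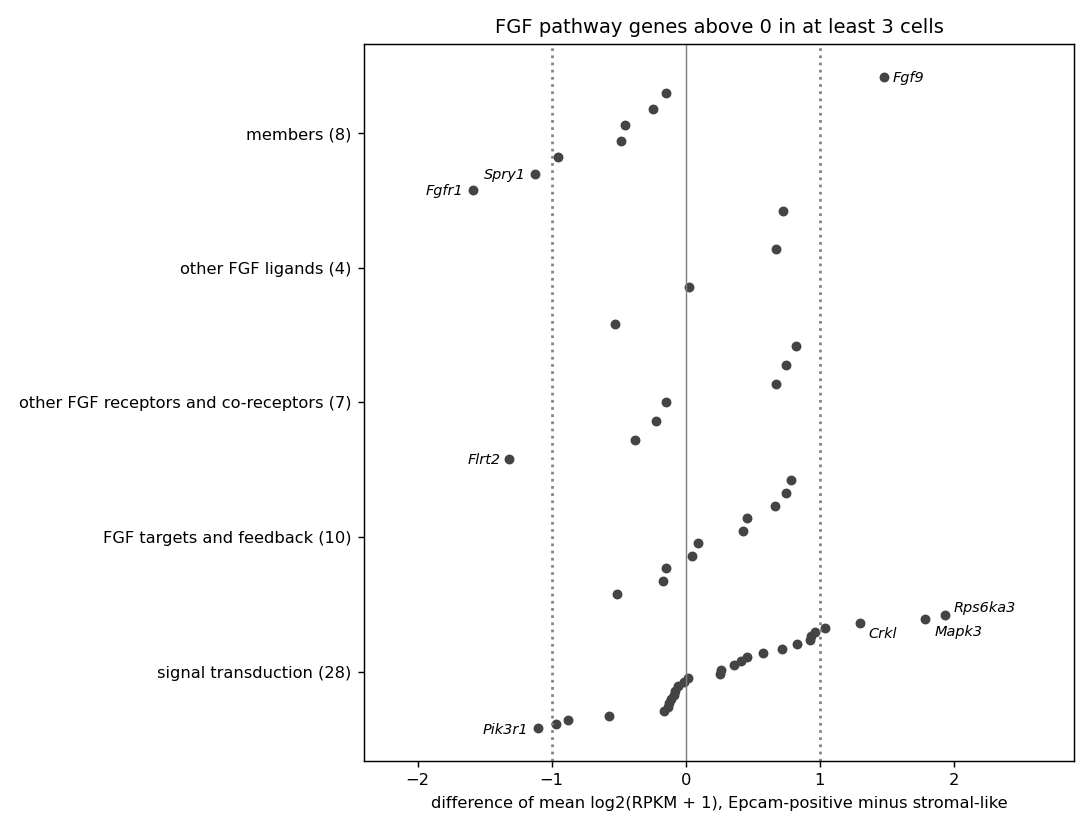
Difference of mean log2(RPKM + 1), Epcam-positive minus stromal-like cells, for the members and 4 lists of FGF pathway genes, with the number of genes above 0 in at least 3 cells in brackets. Each point is a gene, dotted lines mark -1 and 1, and names are given for most genes past them: Fgf9 at 1.48 rests on 2 cells, and Fgfr1, Spry1, Flrt2 and Pik3r1 lie below -1.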

How the data were processed

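Values were deposited as 1 table of 81 single cells, 29510 transcript rows and mm9 coordinates counting from 1. Its header names no unit. The values were read as RPKM computed by the authors, since deposited values times transcript length fall on whole reads: a median of 91.5% of low values per cell lay within 0.15 of a whole number, and the lowest cell had 87%. This step also gave the estimated reads per cell, with transcript lengths from GENCODE vM21 (GRCm38). CASAVA 1.8.2 and the build mm9 are named per the submitters' processing notes. The aligner, the counting tool, the annotation and cell filters are not given in the sources used. Dissociation, capture and library chemistry are as given per the labels' protocols.

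Each gene takes the values of 1 transcript row, that with the highest mean. Detection was 1 RPKM, and differences are of mean log2(RPKM + 1), with a pseudocount of 1 RPKM, which understates differences of low genes. Genes above 0 in at least 3 cells (13237) entered the comparison, with a difference of at least 1 counted. Shares have exact Clopper-Pearson 95% intervals, and a share of 0 is limited at 3 cells of the total. All cells form 1 sample, so no test was run. Doublets were not removed.

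Members, gene lists and markers were chosen with earlier results of these data known. Named genes are all members, all genes of the lists of ligands, receptors and targets, the 6 signal transduction genes of largest difference at 1 RPKM in at least 50% of cells of the higher group, and the 3 genes of highest rho for each member in at least 20 cells. Of the signal transduction genes, 2 are not reported here. Leukocyte-like and endothelial-like cells had at least 3 of their markers at 10 RPKM. Alternatives changed the pseudocount, filter, detection level, markers, transcript rows and cells. Python 3.11.15, pandas 2.3.3, numpy 2.4.6, scipy 1.17.1 and matplotlib 3.10.9 were used, and the computations were tested on simulated data.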

Additional observations from a re-analysis of the deposited data

Results flagged for a closer look

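In groups of 4 to 10 cells, 4 values of the 9 genes stood far from the remainder of their group. Chance marks about 1 group in 20 where values are continuous, a rate that does not apply here, since most cells of each such group were at 0 and any value above 0 then stands apart. Fgf10 was at 2.67 RPKM in the Epcam-positive cell C29, with a gap to the next cell of 0.729 of the group's whole range. In the 4 leukocyte-like cells, Fgfr2 was at 15.1 RPKM in C36 and at 0 in the others, Fgf10 was at 0.0456 RPKM in C36, and Fgf9 was at 0.121 RPKM in C31. The values of Fgf10 and Fgf9 in leukocyte-like cells lie under the detection level of 1 RPKM.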

How the results depend on the processing

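Fgfr1 was past -1 in all 20 alternatives, while Fgf9 was past 1 in 17 and Spry4 past -1 in 3. Leaving out C13 and C29, chosen after seeing the data, gave an Fgf9 difference of -0.0773, 0 members higher, 1 member lower, and 9 genes of the 4 lists higher and 1 lower, against 1, 2, 4 and 2 with all cells. Leaving out each Epcam-positive cell gave 0 to 1 members higher, 1 to 3 lower, 4 to 6 list genes higher and 0 to 3 lower (0 without C13, 1 without C43). A pseudocount of 0.1 RPKM gave 16 list genes higher and 5 lower, summing transcript rows gave 4 lower, leaving out cells under 1000000 reads gave 1 lower, and leaving out cells with Chga or Neurog3 gave 10 higher and 4 lower. At 10 RPKM, Fgfr1 occurred with a Sprouty gene in 64.5% and with Fgfr2 in 19.4% of stromal-like cells, and for any value above 0 in 98.4% and 69.4%. The cause of these shifts was not tested. Setting Epcam at 1 RPKM or markers at 5 or 20 RPKM left the groups at 9 and 65 cells. These alternatives, and the one without the filter, thus repeated the member differences and could not disagree with them. Members in at least 50% of stromal-like cells numbered 3 to 5. No paired analysis was possible because there is 1 sample.

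The limits are few Epcam-positive cells, 4 shallow cells, and values of 0 that do not show absence. Cells that share an index with C13, the top Fgf9 cell, had Fgf9 at 1 RPKM in 0 of 16 and a lower value above 0 in 6, against 2 and 4 of the 64 others. For Fgfr3 and its top cell C17, it was 0 and 4 of 15, against 2 and 2 of 65. Spry1 was detected in 76.7% of 30 stromal-like cells numbered up to 48 and 54.3% of 35 numbered from 49.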
